A study of Mus musculus with 9 samples.

Results

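The 10 genes described here are the G1 cyclins and the inhibitors of the cyclin-dependent kinases (CDKs) that were followed by symbol, 10 of the 31053 genes counted: the D cyclins Ccnd1, Ccnd2 and Ccnd3, the E cyclins Ccne1 and Ccne2, the CIP/KIP inhibitors Cdkn1a (p21) and Cdkn1b (p27), and the INK4 inhibitors Cdkn2a, Cdkn2c and Cdkn2d. D cyclins bind CDK4 and CDK6 and begin to phosphorylate the retinoblastoma protein, which holds the E2F transcription factors in check. E cyclins then bind CDK2 as cells enter DNA replication, INK4 proteins block CDK4 and CDK6, and CIP/KIP proteins block the cyclin E and CDK2 complex. In macrophages the D cyclins were first found as genes induced by CSF1, the growth factor whose receptor is inhibited in this study.

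Brain cells of female C57BL/6 mice (the substrain C57BL/6J in the study's methods) of 5 months were sorted as live CD11b+ cells, after removal of the cerebellum, and captured with 10x Genomics 3′ chemistry, which counts RNA molecules as UMIs. Ctrl mice were untreated (3 libraries, 1 brain each). D0 mice ate a diet with 1200 mg/kg of the CSF1R inhibitor PLX5622 for 14 days (3 libraries, 2 brains each), and D2 mice then returned to control diet for 2 days (3 libraries, 2 brains each). The barcodes do not tell the pooled brains apart, so that a D0 or D2 library is 1 replicate.

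Of 28655 cells kept in 8 libraries, 21395 fell in 8 clusters that carried microglial markers and are called microglia-like. Other clusters carried these markers too, among them a cluster of 1390 shallow cells that was left unnamed. None of the 10 genes was used for clustering. A cell was called dividing when it held UMIs of at least 2 of 8 mitotic genes (Mki67, Top2a, Ube2c, Birc5, Cenpf, Tpx2, Ccnb2, Cdc20), replicating when it held at least 2 of 8 replication genes but fewer mitotic ones (Rrm2, Tyms, Cdc45, Clspn, Uhrf1, Gins2, Dtl, Mcm10), and non-dividing otherwise. These classes held 2398, 398 and 18599 cells. Levels are given in CPM, the UMIs of a gene as a share of all UMIs of the summed cells of a class in a library on the usual CPM scale, and are not scaled by gene length.

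Dividing cells made up 0.140% to 0.312% of the microglia-like cells in Ctrl, 7.98%, 24.045% and 22.3% in D0-1, D0-2 and D0-3, and 16.7% and 24.8% in D2-1 and D2-2. The D0 mean was 18.1% ± 8.81 (SD, n = 3) and the D2 mean 20.7% ± 5.68 (SD, n = 2), against 0.254% ± 0.0982 (SD, n = 3) in Ctrl. Both exact permutation tests gave the smallest two-sided p that their sample numbers allow, 0.1 for D0 and 0.2 for D2. These shares leave out cells above 20000 UMIs. With those cells kept they were 0.384%, 0.478% and 0.498% in Ctrl and 9.07%, 28.2% and 34.1% in D0. In D2-1 and D2-2 they were then 16.9% and 28.2%, so D0-3 held the largest share. After thinning each cell to 2000 UMIs the Ctrl share was between 0.0940% and 0.188%, while the D0 libraries held 5.81%, 13.5% and 12.7% and the D2 libraries 11.3% and 14.3%. Replicating cells made up 0.648% to 1.16% in Ctrl, 0.939%, 1.41% and 9.96% in D0, and 1.95% and 0.812% in D2, and the Ctrl share fell to between 0.0627% and 0.0940% after thinning, so that the replicating class in Ctrl moved with depth. Replicating cells averaged 4.10% ± 5.08 in D0 and 1.38% ± 0.807 in D2, with exact two-sided permutation p of 0.2 and 0.4 against Ctrl. After thinning the D0 libraries held 0.453%, 0.4315% and 3.4997% replicating cells, and the D2 libraries 0.369% and 0.143% (10 and 2 cells). All lay above every Ctrl library, and the exact permutation p became 0.1 and 0.2, again the smallest possible. Each Ctrl library also held 2 such cells, so the place of D2-2 above Ctrl rests on 2 cells against 2.

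Library D2-3 stood apart and was left out of the comparisons. The authors also set that library aside. The cells of D2-3 were not clustered themselves. Each took the most common cluster among its 30 nearest cells of the other libraries, so its name was assigned and not found by clustering. The 740 microglia-like cells of D2-3 were 84.9% dividing, 37.3% of its barcodes lay above 20000 UMIs, and 9 of 12 microglial markers were below their level in every other library. The share of barcodes above 20000 UMIs was 24.2% in D0-3 and 1.20% to 14.3% in the rest. The summed level of the 12 markers ran from 30830 to 36119 CPM among Ctrl libraries, from 22013 to 23891 among D0 libraries, and was 18735 in D2-1, 19388 in D2-2 and 9317 in D2-3, so the markers moved with the groups too, and their part in the results below was not tested. Cell Ranger version 3.0.2 is named in the files of Ctrl-1 and of all D0 libraries, D2-1 and D2-2, and version 3.1.0 in those of Ctrl-2, Ctrl-3 and D2-3. Within version 3.0.2 there is therefore 1 Ctrl library, and a fit with the version as a term sets the treated libraries against Ctrl-1 alone. Ctrl-1 held 74.4% of its microglia-like cells in the cluster led by Sox4 and P2ry12, against 28.0% in Ctrl-2 and 32.6% in Ctrl-3. Version and other differences of Ctrl-1 cannot be told apart.

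Ccnd1, the D cyclin with most UMIs in Ctrl microglia-like cells, differed widely between libraries of one group. In non-dividing cells it stood at 137, 165 and 152.5 CPM in the 3 Ctrl libraries, and at 32.4, 27.8 and 101.35 CPM in the 3 D0 libraries. D2-1 reached 200.25 CPM while D2-2 held 11.04 CPM. Every D0 library was thus below every Ctrl library, but the D2 libraries lay on either side of the Ctrl range. The fitted change was -1.27 ± 0.78 (SE) on the log2 scale in D0 against Ctrl and -0.41 ± 0.87 in D2 against Ctrl, and neither passed edgeR's quasi-likelihood test (adjusted p = 0.357 and 0.809). Without D2-1 the D2 change became -3.62 (adjusted p = 0.0342), and without D2-2 it became 0.50. Each of these fits has 1 D2 library, which is assumed to vary like the other groups.

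The Ccnd1 difference between the D2 libraries was seen in 7 of the 8 microglia-like clusters. In D2-1 the clusters led by Sox4 and P2ry12, by Thrsp and Lag3, by Hspa1a and Hmox1, and by Tnf and Il1a held 274, 216, 232 and 184 CPM. In D2-2 the same clusters held 8.28, 6.61, 6.45 and 26.2 CPM. The cluster led by Igf1 and Ifi27l2a held 64.7 CPM in D2-1 and 10.5 CPM in D2-2, that led by Ccnb2 98.6 and 15.1 CPM, and that led by Fosb and Jun 273 and 48.9 CPM (29 cells in D2-2). In the mitotic cluster led by Top2a, D2-1 was the lower one (8.31 and 12.6 CPM). A similar order held among the D0 libraries, where D0-3 held 95.5 to 119 CPM in the 4 clusters named first and D0-2 held 23.7 to 30.3 CPM. For comparison, monocyte-like cells, which use little Ccnd1, held 2.92 to 11.7 CPM over 7 libraries, with 3.17% of cells carrying a UMI on average and median depths of 5406 to 9549 UMIs. The Ccnd1 level of non-dividing cells of D2-2 (11.04 CPM) was within that range. The levels of its clusters led by Tnf and Il1a, by Ccnb2, by Fosb and Jun, and by Top2a were above it.

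**Figure D1:**
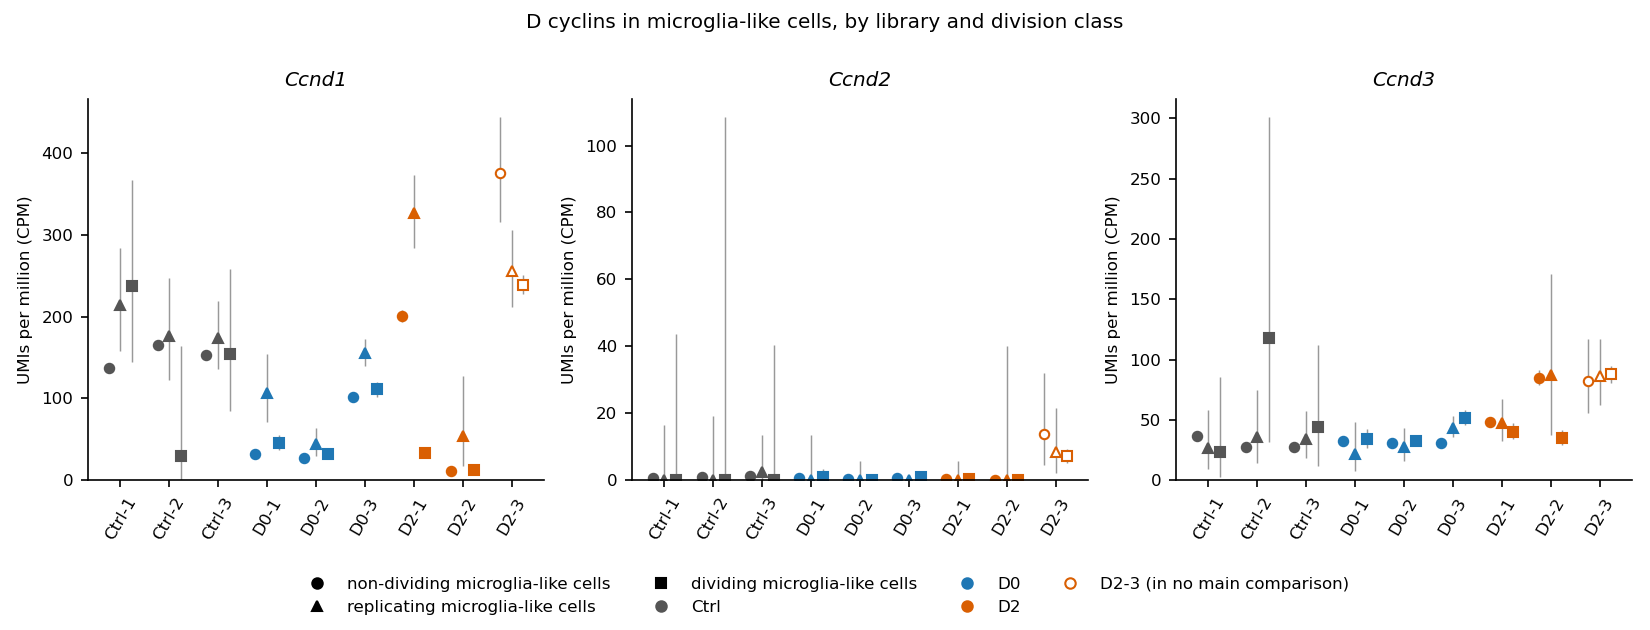
Levels of the D cyclins in CPM (y axis) for each library (x axis) in non-dividing (circles), replicating (triangles) and dividing (squares) microglia-like cells, with bars for the 95% counting interval of the summed UMIs. Ccnd1 in non-dividing cells lies at 137 to 165 CPM in Ctrl, at 27.8 to 101.35 in D0, and at 200.25 and 11.04 in D2-1 and D2-2. Among non-dividing cells Ccnd3 is highest in D2-2 (84.9 CPM), and Ccnd2 stays near 0 outside D2-3.

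Ccnd1 was also uneven between the cells of D2-1. Among non-dividing cells of 5000 to 10000 UMIs, 56.5% of 1057 cells in D2-1 had no Ccnd1 UMI, where a Poisson count at that library's mean level would give 27.5%. At the same time 21.95% of these cells held 3 or more UMIs, more than the 10.1% to 13.3% of the Ctrl libraries. In the Ctrl libraries 36.3% to 47.8% of cells had no Ccnd1 UMI, against 31.4% to 40.0% from the Poisson count. The variance of the counts divided by their mean was 3.03 in D2-1 and between 1.39 and 1.88 in the other 7 libraries. By this ratio Ccnd1 was more uneven in D2-1 than in the Ctrl libraries, whose levels were nearest (131 to 163 CPM against 191). The ratio can grow with the level alone, so it does not rank D2-1 against D2-2 and the D0 libraries, which lay further below. A count of 0 at this depth does not show that a cell lacks the RNA. Whether the cells came from different brains of that library was not tested.

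**Figure D2:**
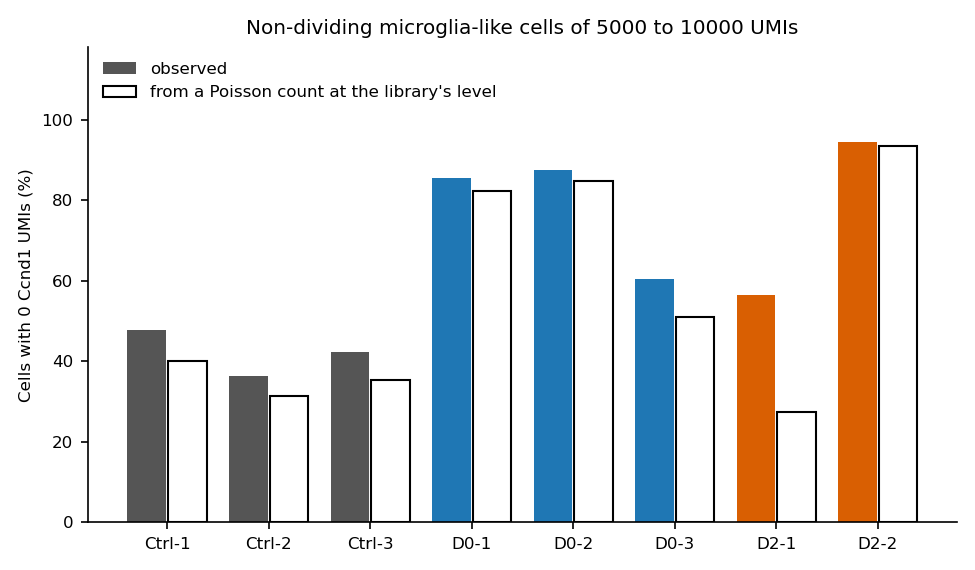
Share of non-dividing microglia-like cells of 5000 to 10000 UMIs that held no Ccnd1 UMI (y axis, percent) in each of 8 libraries (filled bars, coloured by group), beside the share a Poisson count at the library's mean level gives (open bars). The gap is widest in D2-1, with 56.5% observed against 27.5%.

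Ccnd3 was even in Ctrl and D0 and higher in D2. Non-dividing cells held 37.0, 27.8 and 27.8 CPM in Ctrl, 32.3, 31.4 and 30.6 CPM in D0, and 48.2 and 84.9 CPM in D2. Both D2 libraries lay above all 6 others, and they differed from each other by more than the Ctrl and D0 libraries did. The rise in D2 against Ctrl was 1.23 ± 0.22 (SE) on the log2 scale (adjusted p = 0.00809). It did not pass once the Cell Ranger version entered the fit (1.025, adjusted p = 0.104). In D2-2 the Sox4 and P2ry12 cluster held 141 CPM and the Tnf and Il1a cluster 49.0 CPM, while the mitotic clusters led by Ccnb2 and by Top2a held 34.7 and 42.6 CPM.

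Ccnd2 was nearly absent from microglia-like cells. Its non-dividing level ranged from 0.65 to 1.32 CPM among the Ctrl libraries (70 UMIs in all), from 0.40 to 0.68 among D0 (29 UMIs) and from 0.12 to 0.54 among D2 (9 UMIs). The fitted changes were -0.63 ± 0.46 in D0 and -1.33 ± 0.60 in D2 (adjusted p = 0.437 and 0.198). The make-up of the D cyclin UMIs of non-dividing cells followed the 2 genes above. Ccnd1 gave 78.4%, 85.0% and 84.0% of them in Ctrl, 49.6%, 46.7% and 76.4% in D0, and 80.4% and 11.5% in D2. The D0 share was 57.6% ± 16.4 (SD, n = 3) against 82.5% ± 3.54 in Ctrl, with an exact two-sided permutation p of 0.1, the smallest that 3 against 3 allows. The D2 share, 46.0% ± 48.7 (SD, n = 2), was not separated from Ctrl (exact p = 0.4). Ccnd3 gave the remainder, 17.0% ± 3.69 in Ctrl, 41.7% ± 16.2 in D0 and 53.9% ± 48.8 in D2 (exact p = 0.1 and 0.4). Ccnd2 gave 0.560% ± 0.176, 0.736% ± 0.271 and 0.172% ± 0.0645 (exact p = 0.5 and 0.2).

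Among the inhibitors, Cdkn1a, Cdkn2a and Cdkn2c were higher in non-dividing cells of D0 than of Ctrl. They are 3 of the 8 members that passed the filter on low counts, where 8.98% of the 12193 genes tested passed the threshold (adjusted p under 0.05) and 6.63% did so as higher. In D2 against Ctrl these 3 genes and Ccnd3 were higher, 4 of 8 members, where 10.7% of all genes passed and 6.52% as higher. No member was lower in either comparison, where 2.35% and 4.21% of all genes were. The median change over the 8 members was 0.46 in D0 and 0.94 in D2 on the log2 scale, beside -0.04 and -0.01 over all genes. Both comparisons use the same Ctrl libraries. Ccne1 and Ccne2 did not pass the filter on low counts. The non-dividing class admits cells with 1 mitotic gene. In Ctrl 102, 74 and 74 microglia-like cells had 1, beside 3131, 2062 and 3118 with 0. In D0 these were 223, 457 and 212 beside 2521, 2405 and 1161, and in D2 284 and 227 beside 2061 and 885. Cells with 0 held 0.52, 0.39 and 0.62 CPM of Cdkn2a in Ctrl. They held 2.13, 2.48 and 2.215 CPM in D0, and 2.69 and 1.90 CPM in D2. What undetected cycling cells added to the changes was not tested.

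Cdkn1a encodes p21, a CDK inhibitor that p53 can induce. Ctrl libraries held 21.7, 28.6 and 28.2 CPM, D0 libraries 39.6, 103 and 105 CPM, and D2 libraries 112 and 76.2 CPM. All treated libraries were above all Ctrl libraries, D0-1 the least so. The change was 1.91 ± 0.36 in D0 and 1.962 ± 0.38 in D2 (adjusted p = 0.0106 and 0.0118). Once the Cell Ranger version entered the fit the changes were 2.25 ± 0.56 and 2.30 ± 0.58 and neither passed (adjusted p = 0.0618 and 0.0675), and the D2 rise did not pass without D2-1, with 1 D2 library left (1.697, adjusted p = 0.0700). With D2-3 included the D0 change was still 1.905, with a larger SE of 0.62, and did not pass (adjusted p = 0.128).

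The Cdkn1a UMIs were concentrated in some clusters. The cluster values take all microglia-like cells, so that in D0 and D2 they include dividing and replicating cells, which were rare in Ctrl. The cluster led by Tnf, Dusp2 and Il1a held between 128 and 129.8 CPM in each Ctrl library, 172 to 279 in the D0 ones, and 261 and 257 in D2-1 and D2-2. The cluster led by Igf1, Ifi27l2a and Axl held between 8.04 and 32.7 CPM in the Ctrl libraries (24 cells in Ctrl-1), 43.1 to 184 in the D0 ones, and 127 and 159 in D2-1 and D2-2. In the cluster led by Sox4 and P2ry12, by contrast, the ranges overlapped, at 11.4 to 14.7, 8.85 to 15.3 and 13.8 to 21.3 CPM. The Tnf and Il1a cluster made up between 2.59% and 8.37% of microglia-like cells in the Ctrl libraries, 9.72% to 25.7% in the D0 ones, and 19% and 8.999% in D2-1 and D2-2, so cluster shares moved with the groups as well. How much of the rise each gave was not tested.

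Cdkn1b encodes p27, which is known to be abundant in resting cells. Its non-dividing levels were 89.8, 43.1 and 53.1 CPM in Ctrl, 85.4, 76.0 and 69.0 CPM in D0, and 88.3 and 108 CPM in D2. Ctrl-1 lay among the treated libraries and the other 2 Ctrl libraries below them. The change was 0.56 ± 0.22 in D0 and 0.80 ± 0.24 in D2 and did not pass (adjusted p = 0.151 and 0.068). Without Ctrl-1 both passed, at 0.88 and 1.14 (adjusted p = 0.0117 and 0.00482). In that fit the Ctrl libraries are of Cell Ranger 3.1.0 and the treated ones of 3.0.2. Group and version cannot be told apart there.

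Cdkn2a, a locus that gives the INK4 protein p16 and, from another first exon, the Mdm2 inhibitor p19Arf, was low in non-dividing cells and higher after treatment. Its non-dividing levels were 0.54, 0.43 and 0.62 CPM in Ctrl, 2.09, 4.17 and 2.93 CPM in D0, and 3.79 and 3.27 CPM in D2. These rest on 37 UMIs in Ctrl, 174 in D0 and 83 in D2. Neither D0 nor D2 overlapped with Ctrl, and the change was 2.78 ± 0.35 in D0 and 2.84 ± 0.38 in D2 (adjusted p = 0.00125 and 0.00217). With D2-3 included the D0 change was still 2.775, with a larger SE of 0.84, and did not pass (adjusted p = 0.101). It passed in the other 22 alternatives.

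Cdkn2c encodes p18. Its non-dividing levels were 4.54, 5.94 and 6.21 CPM in Ctrl, 15.2, 11.8 and 7.29 CPM in D0, and 9.74 and 12.01 CPM in D2. All treated libraries lay above Ctrl, D0-3 by the least. The change was 1.28 ± 0.26 in D0 (adjusted p = 0.0157) and 1.08 ± 0.29 in D2 (adjusted p = 0.0452). The D2 rise is the weakest call, since it did not pass in 11 of 23 alternatives, among them the replicate block (0.98, adjusted p = 0.104). The D0 rise did not pass without Ctrl-2 or without D0-2 (adjusted p = 0.05 and 0.0706). Cdkn2d, which encodes p19, held between 10.5 and 13.2 CPM in the Ctrl libraries, 9.39 to 15.55 in the D0 ones, and 14.96 and 16.3 in D2-1 and D2-2 (0.36 ± 0.21 and 0.51 ± 0.23, adjusted p = 0.316 and 0.194).

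**Figure D3:**
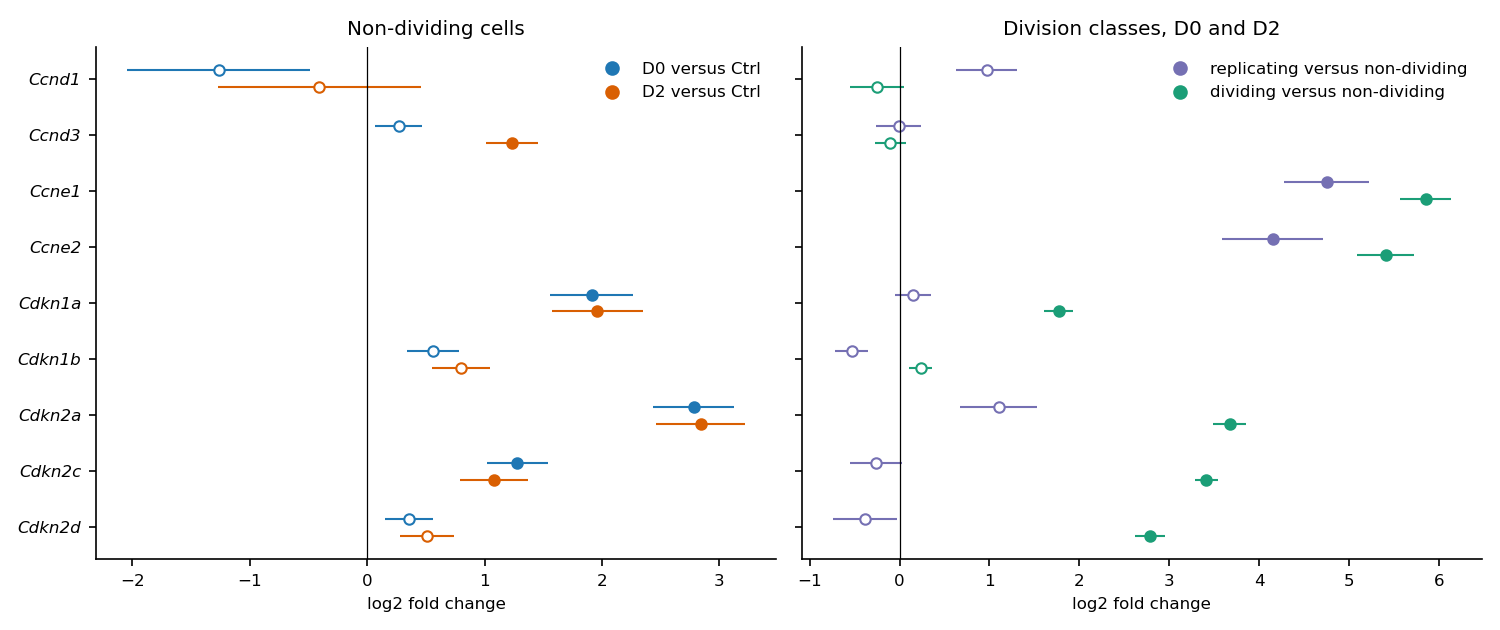
Log2 fold changes (x axis) with standard errors for the members that were tested (y axis), D0 and D2 against Ctrl in non-dividing cells at left, and replicating and dividing against non-dividing cells of the 5 D0 and D2 libraries at right. Ccnd2, tested in the comparisons at left, is not drawn. Filled points passed edgeR's quasi-likelihood test at an adjusted p under 0.05. Cdkn2a has the largest changes at left (2.78 and 2.84), and Ccne1 at right (4.75 and 5.85).

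D2 was next set against D0 in non-dividing cells. No member and none of the 12193 genes passed edgeR's test (0% of genes, with 825 at an unadjusted p under 0.05), while DESeq2 called 24 genes, among them Ccnd3 (0.97, adjusted p = 0.0452). In edgeR's test the Ccnd3 difference was 0.96 ± 0.22 (unadjusted p = 0.00158, adjusted p = 0.712). The Ccnd1 difference was 0.86 ± 0.85 (adjusted p = 0.787) and became -2.35 without D2-1.

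Dividing cells differed from non-dividing cells of the same libraries in 6 of the 9 members tested, all higher. The comparison rests on the 5 D0 and D2 libraries with the library as a block, and 43.1% of 10615 genes passed in it (21.8% higher and 21.3% lower). Many genes therefore separated these classes, and the size of the changes is the better guide. The median change of the members was 2.79 on the log2 scale, beside -0.04 over all genes and 0.70 over all genes called higher. Ccne1 and Ccne2 count among the 6 and in that median. They passed the filter on low counts here only through the cycling classes, where they are high, so their rise was favoured in advance. Among the other members tested the middle change was that of Cdkn1a, 1.77. Dividing cells were deeper, with medians of 7067 to 14316 UMIs in these libraries against 5334 to 9447 in non-dividing cells.

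The E cyclins were close to absent outside the cycling classes. Ccne1 held at most 0.84 CPM in non-dividing cells of any of the 8 libraries, and 33.0, 13.8, 23.8, 7.93 and 10.9 CPM in dividing cells of D0-1, D0-2, D0-3, D2-1 and D2-2. Ccne2 held at most 0.75 CPM, and 28.9, 9.76, 26.4, 7.11 and 9.80 CPM in dividing cells. For both, every dividing sum was above every non-dividing one (5.85 ± 0.28 and 5.41 ± 0.32, adjusted p = 1.19e-12 and 2.59e-11). Replicating cells already held more of both on average, at 6.10 CPM ± 5.06 and 9.01 CPM ± 7.90 (SD, n = 5). In D2-2 Ccne1 was not higher, with 0 CPM in both classes. D0-3 held 176 replicating cells, of which 10.8% carried a Ccne1 UMI and 11.9% a Ccne2 UMI. The other libraries held 12 to 55 such cells, of which 0% to 7.55% and 1.89% to 16.7% did. Ccne1 and Ccne2 were the 2 of 9 members that passed against non-dividing cells (4.75 ± 0.48 and 4.15 ± 0.56, adjusted p = 1.63e-06 and 5.62e-05). In this comparison 8.92% of genes passed, 6.67% higher and 2.25% lower. Both genes entered the class fit only through the cycling classes, so their calls add nothing to the levels given. With 1 library left out at a time the 2 changes were 4.47 to 5.08 and 3.91 to 4.45.

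The INK4 genes and Cdkn1a rose strongly in dividing cells. Cdkn2c held 149, 110, 95.2, 138 and 98.02 CPM in dividing cells of D0-1, D0-2, D0-3, D2-1 and D2-2, where non-dividing cells of the same libraries held 7.29 to 15.2 CPM. Cdkn2d held 167, 74.5, 74.0, 106 and 75.1 CPM against 9.39 to 16.3. Cdkn2a held 56.0, 37.6, 34.1, 41.0 and 43.4 CPM against 2.09 to 4.17. None of these ranges overlapped, and the changes were 3.41 ± 0.13, 2.79 ± 0.17 and 3.67 ± 0.18 (adjusted p = 1.71e-14, 3.62e-11 and 1.48e-12). Cdkn1a held 255, 341, 309, 226 and 273 CPM against 39.6 to 112 (1.77 ± 0.16, adjusted p = 1.99e-08). These 6 calls held in each of the 17 alternatives run for them.

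Cdkn1b and the D cyclins did not follow. Cdkn1b held 104, 75.5, 61.3, 149 and 124 CPM in dividing cells, higher than the non-dividing cells in D0-1, D2-1 and D2-2 and lower in D0-2 and D0-3 (0.24 ± 0.13, adjusted p = 0.15). Ccnd3 held 33.9, 32.5, 51.9, 40.5 and 35.3 CPM (-0.10 ± 0.17, adjusted p = 0.655). Ccnd1 held 45.1, 32.1, 111, 33.4 and 12.6 CPM (-0.25 ± 0.30, adjusted p = 0.522). In D2-1 the Ccnd1 level of dividing cells was far below the 200.25 CPM of non-dividing cells, whereas in the other 4 libraries the dividing cells were slightly higher. Without D2-1 the change was 0.24 ± 0.11. Thinned to 2000 UMIs per cell, with D2-1 included, it was -0.69 and passed (adjusted p = 0.00261).

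The 23 dividing cells of the Ctrl libraries carried the same genes. Summed over the 3 libraries, Cdkn1a stood at 401 CPM (95% Poisson interval 320 to 497), of which Ctrl-3 gave 58 of 84 UMIs (154, 383 and 637 CPM in Ctrl-1, Ctrl-2 and Ctrl-3). Cdkn2c stood at 148 (100.7 to 210), Cdkn2d at 115 (73.5 to 171) and Cdkn2a at 43.0 (19.7 to 81.7). Ccne1 stood at 52.6 CPM (26.2 to 94.1) and Ccne2 at 66.9 (36.6 to 112). Ccnd1 stood at 167 CPM (117 to 233), Cdkn1b at 66.9 (36.6 to 112), Ccnd3 at 47.8 (22.9 to 87.9), and Ccnd2 had no UMI (upper bound 17.6). The intervals cover counting error only, and these cells entered no test.

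**Figure D4:**
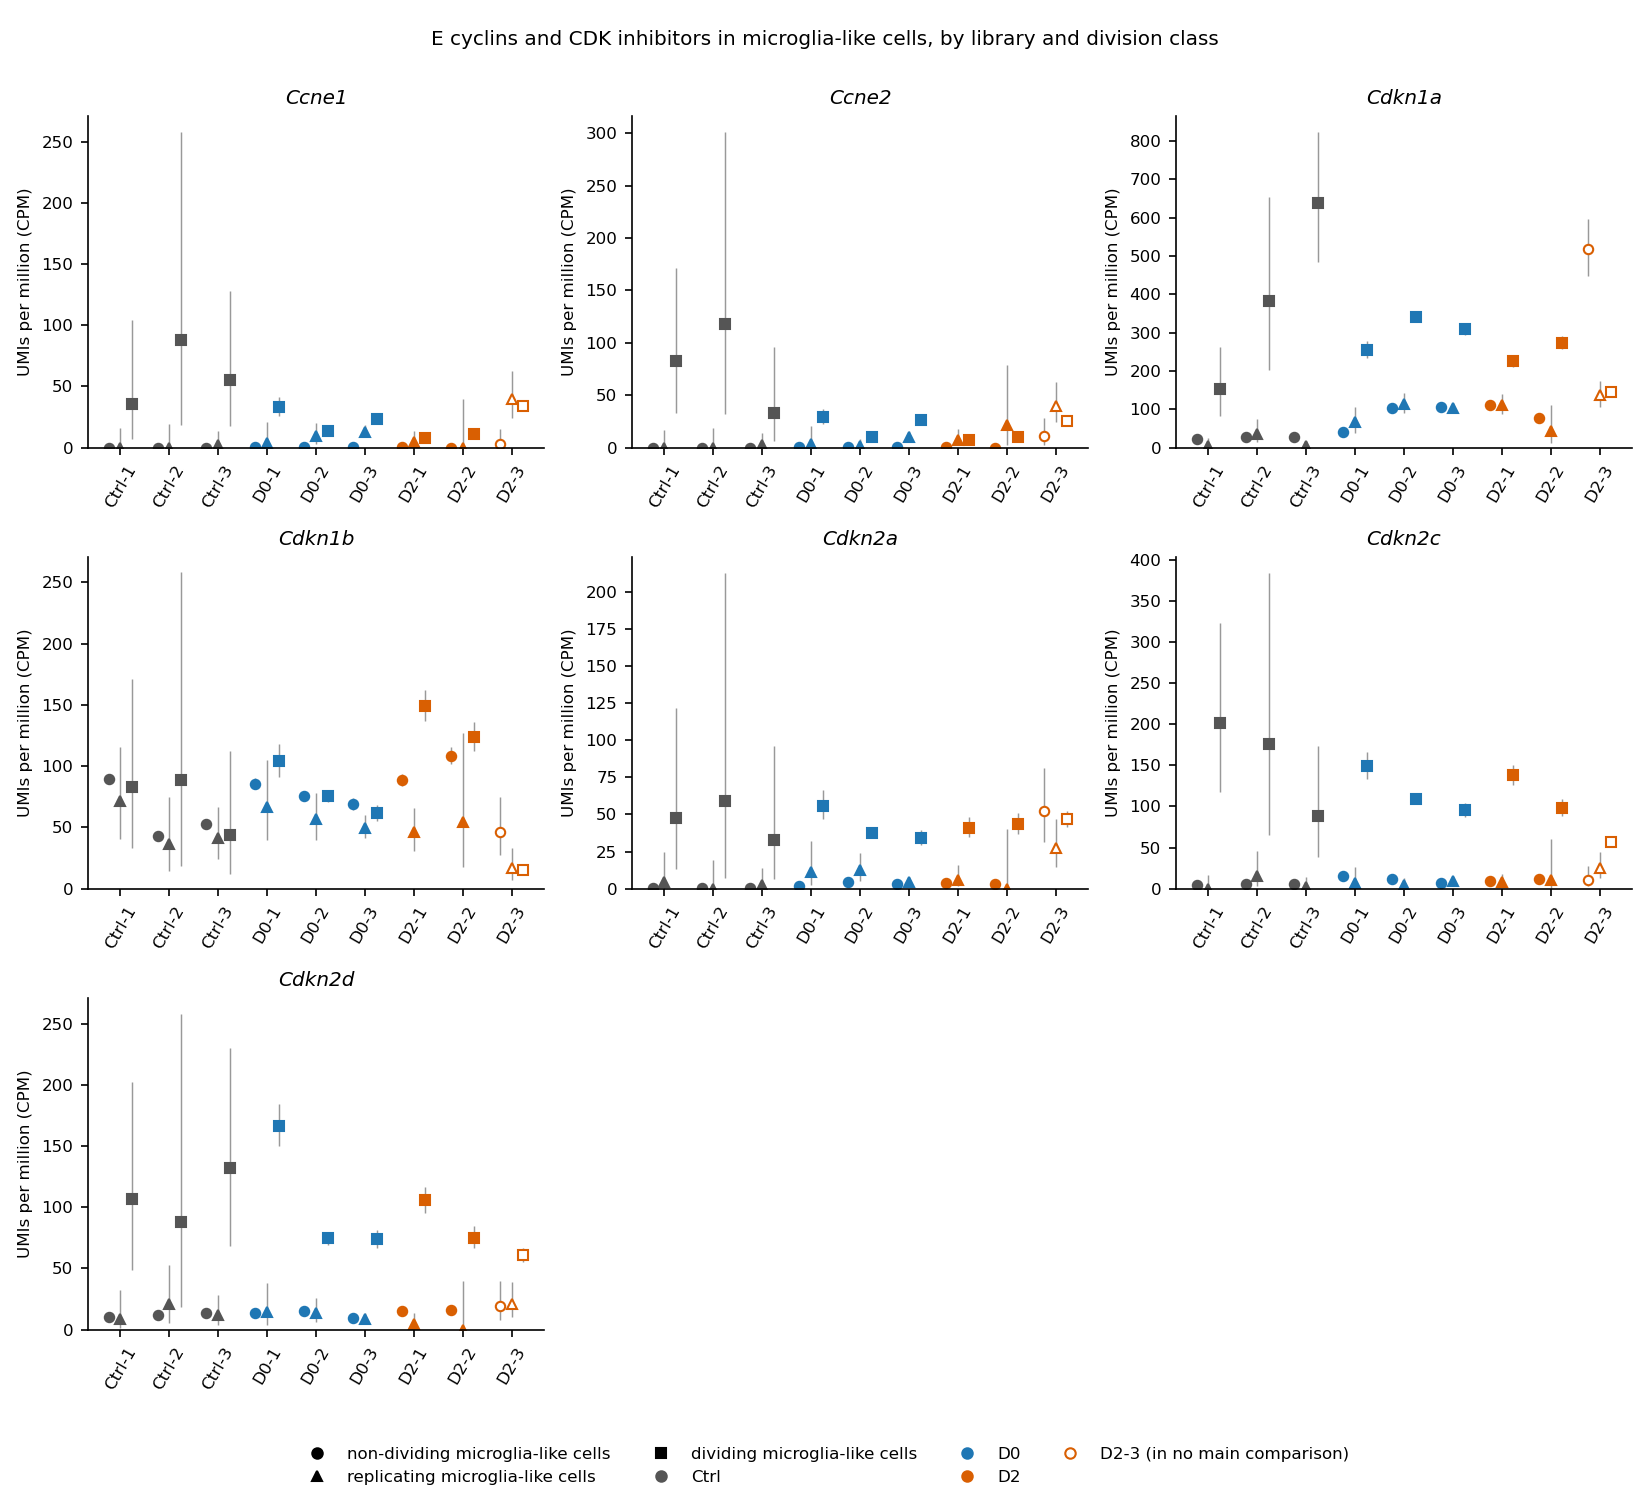
Levels of the E cyclins and CDK inhibitors in CPM (y axes, each from 0) for each library (x axis) and class, with 95% counting intervals. In the D0 libraries, D2-1 and D2-2, Ccne1, Ccne2, Cdkn1a, Cdkn2a, Cdkn2c and Cdkn2d are higher in dividing cells (squares) than in non-dividing cells (circles). Cdkn1b is higher in some libraries and lower in others. In D2-3 (open markers) Cdkn1a and Cdkn2a are lower in dividing cells (145.8 and 46.6 CPM) than in non-dividing cells (518 and 52.1 CPM).

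Dividing cells also differed from replicating cells, in 7 of 9 members, where 8.57% of genes passed (5.82% higher and 2.75% lower). Cdkn2c, Cdkn2d and Cdkn2a were at 8.01 ± 2.38, 8.46 ± 6.24 and 6.77 ± 5.03 CPM (SD, n = 5) in replicating cells and at 117.9 ± 24.2, 99.2 ± 40.0 and 42.4 ± 8.35 CPM in dividing cells. The changes were 3.67 ± 0.23, 3.17 ± 0.30 and 2.57 ± 0.32 (adjusted p = 4.51e-10, 2.13e-07 and 1.14e-05). Between replicating and non-dividing cells Cdkn2c and Cdkn2d did not pass the test (-0.26 ± 0.29 and -0.39 ± 0.36, adjusted p = 0.619 and 0.552). Cdkn1a was higher in dividing cells as well (281 ± 45.2 against 87.6 ± 31.2 CPM, 1.62 ± 0.20, adjusted p = 7.97e-06).

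Cdkn1b and Ccnd1 moved in opposite directions between these classes. Cdkn1b was at 54.7 CPM ± 7.82 in replicating cells and 103 CPM ± 35.5 in dividing cells (0.77 ± 0.18, adjusted p = 0.00899). Ccnd1 was at 107, 44.5, 156, 326 and 54.3 CPM in replicating cells of D0-1, D0-2, D0-3, D2-1 and D2-2, above the dividing cells in all 5 libraries (-1.22 ± 0.37 for dividing against replicating, adjusted p = 0.0434). In D2-2, however, only 8.33% of the 12 replicating cells carried a Ccnd1 UMI, and 9.02% of the 366 dividing cells did. Ccne1 was higher in dividing cells (1.10 ± 0.33, adjusted p = 0.0425) and Ccne2 did not pass (1.26 ± 0.40, adjusted p = 0.0549). The Ccnd1 and Ccne1 calls are weak, since each was lost without single libraries, and the Ccne1 change was -0.45 after thinning and -0.07 when 3 genes were asked of a class. Cdkn1b and Cdkn2a did not pass after thinning (1.03 and 1.71, adjusted p = 0.21 and 0.153), and Cdkn1b did not pass with no upper UMI limit (0.57, adjusted p = 0.0675). Replicating sums held as few as 12 cells (D2-2).

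The levels were next described by the number of mitotic genes with a UMI in a cell, from 0 to 8, with no test, since deeper cells show more genes. Cdkn2a climbed stepwise. In D0-2 it went from 2.48 CPM in cells with 0 mitotic genes to 12.4 with 1, 24.3 with 2 or 3, 32.4 with 4 or 5 and 49.1 with 6 to 8. Cdkn2c climbed late, from 11.7 to 11.4, 16.6, 35.2 and 200 CPM in the same cells of D0-2. Cdkn2d followed Cdkn2c, and in all 5 libraries both were at most 26.7 CPM with 2 or 3 mitotic genes and at least 123 CPM with 6 to 8. Median depth in D0-2 was 8080 UMIs in the first bin and 13600 in the last, and D0-1 had 25 cells with 4 or 5 genes.

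Ccnd1 fell step by step along the same order in D2-1. It went from 216 CPM in cells with 0 mitotic genes to 136.5, 96.9, 42.5 and 9.65 CPM. In D0-3 it stayed between 96.3 and 132.5 CPM, in D0-2 between 27.5 and 33.7 CPM, in D2-2 between 5.74 and 14.2 CPM, and in D0-1 between 31.7 and 89.8 CPM, with no such order. Dividing cells of D2-1 with 6 to 8 mitotic genes were therefore as low in Ccnd1 as those of D2-2 (9.65 and 14.2 CPM), although the non-dividing cells of the libraries differed widely. Cdkn1b was highest with 6 to 8 mitotic genes in all 5 libraries, at 76.95 to 169.5 CPM.

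**Figure D5:**
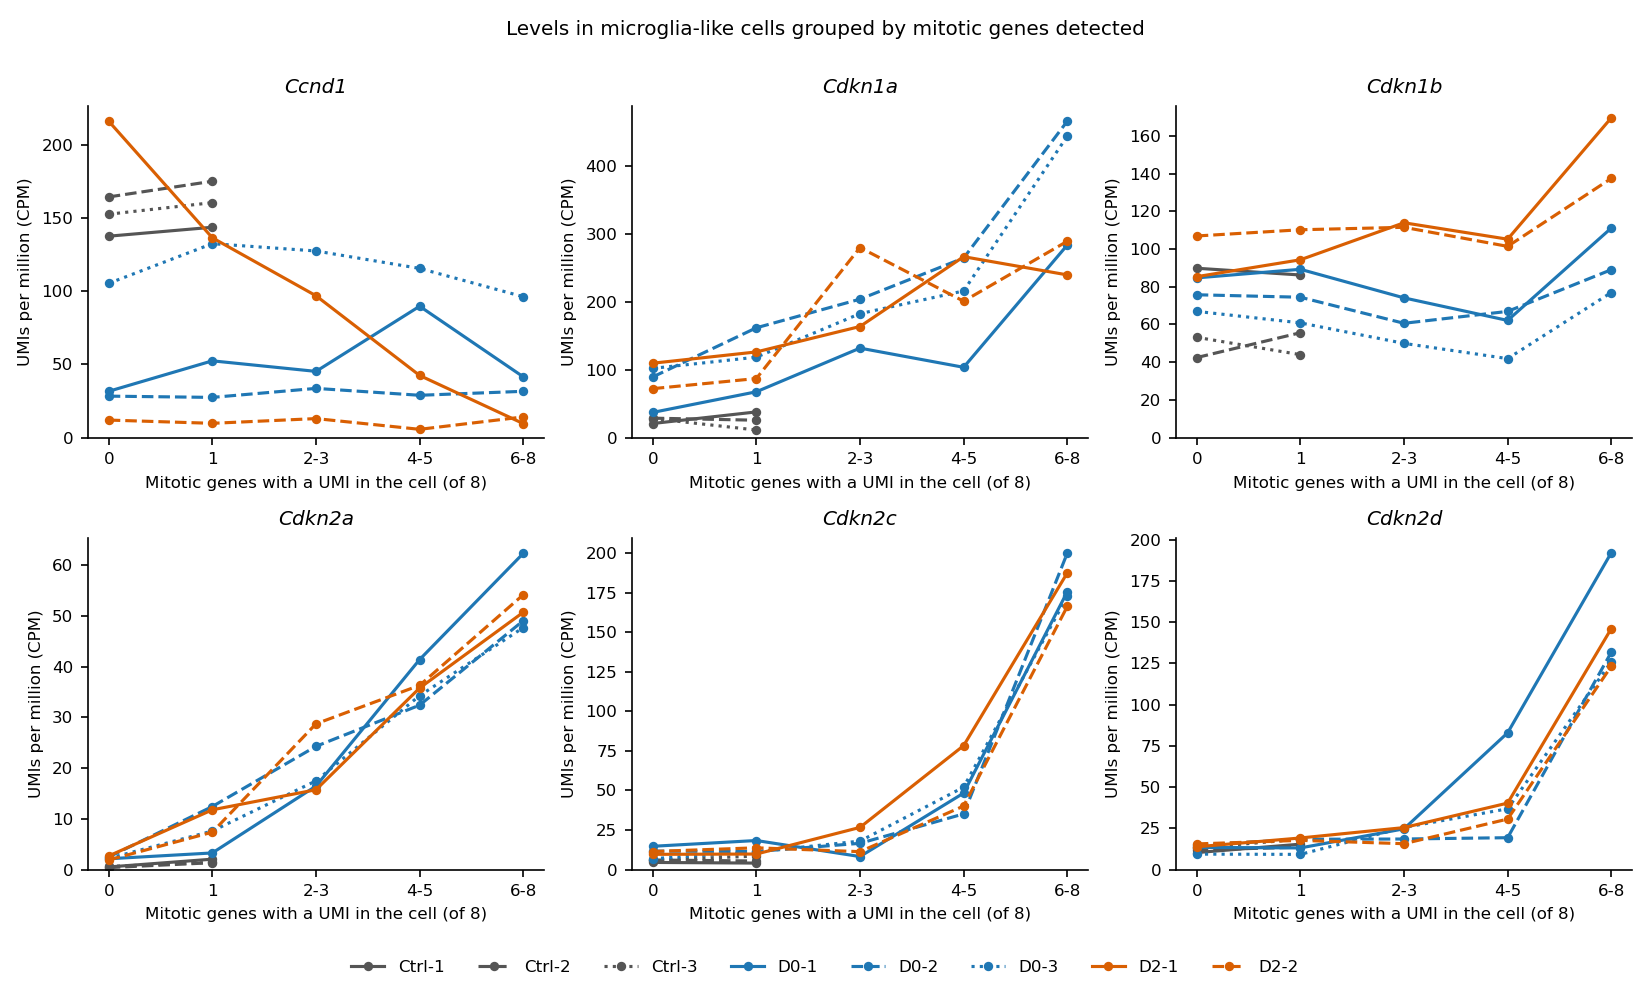
Levels in CPM (y axes) of 6 members in microglia-like cells binned by how many of 8 mitotic genes had a UMI (x axis), 1 line per library and only bins of at least 20 cells. Cdkn2a climbs across all bins, Cdkn2c and Cdkn2d climb mainly from 4 genes on, and Ccnd1 falls from 216 to 9.65 CPM in D2-1 while it stays within 27.5 to 33.7 CPM in D0-2.

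Whether dividing cells differed between D2 and D0 was tested within the class. No member and none of 10207 genes passed edgeR's test (1350 genes had an unadjusted p under 0.05), and DESeq2 called 65 genes and no member. The largest member differences were those of Ccnd1 (-1.49 ± 0.51), Ccne1 (-1.27 ± 0.36) and Ccne2 (-1.30 ± 0.44), and Cdkn1b differed the other way (0.74 ± 0.22), with adjusted p from 0.250 to 0.294. Both D2 libraries held more Cdkn1b in dividing cells (149 and 124 CPM) than every D0 library (61.3 to 104 CPM). The difference between D2 and D0 in the change from non-dividing to dividing cells was not called for any of 11759 genes either (729 at an unadjusted p under 0.05, and 2 genes by DESeq2). For Ccnd1 it was -1.89 ± 0.55 (unadjusted p = 0.00646, adjusted p = 0.772) and became 0.03 without D2-1 and -2.77 without D2-2 (adjusted p = 7.24e-05), each with a single D2 library that is assumed to vary like the others. For Ccnd3 it was -0.999 ± 0.30 (adjusted p = 0.772).

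Cdkn2a is shown by sequence because its 2 start sites belong to different proteins, while both annotated coding transcripts end in the same last exon, which is where 3′ UMIs are read. The UMIs above therefore cannot be assigned to p16 or p19Arf. The gene lies on the minus strand of chromosome 4 at 89274471 to 89294653 (GRCm38). RefSeq windows of 250 bases before to 50 bases after each start, written 5′ to 3′ on the strand of the gene, read as follows, with a match to an E2F motif in capitals (TTTCCCGC, TTTCGCGC, TTTGCCGC or TTTGGCGC, either strand).
upstream start, p19Arf, chr4:89294570-89294869: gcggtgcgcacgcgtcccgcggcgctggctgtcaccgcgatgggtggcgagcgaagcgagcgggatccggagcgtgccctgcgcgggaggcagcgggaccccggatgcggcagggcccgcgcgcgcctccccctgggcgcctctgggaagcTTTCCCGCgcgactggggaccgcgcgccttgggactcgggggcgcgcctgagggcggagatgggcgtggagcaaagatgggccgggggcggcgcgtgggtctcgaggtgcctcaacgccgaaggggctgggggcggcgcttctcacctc
downstream start, p16, chr4:89282143-89282442: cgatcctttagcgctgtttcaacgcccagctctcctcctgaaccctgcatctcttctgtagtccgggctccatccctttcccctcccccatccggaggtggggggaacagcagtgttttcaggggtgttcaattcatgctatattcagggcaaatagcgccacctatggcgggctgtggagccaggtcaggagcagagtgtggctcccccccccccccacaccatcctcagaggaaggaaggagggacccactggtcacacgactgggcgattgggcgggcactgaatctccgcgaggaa
The upstream window holds 1 match and the downstream window none. Of 32851 windows of this length in the table, 744 (2.26%) hold at least 1. Of the 7 members with a window (11 windows in all), Cdkn2a is the only one with a match, and none of the 11 holds the letters TTTGAA or TTCGAA of the cell cycle homology region, which 19.2% of all windows hold. Ccnd1, Ccnd2 and Ccne2 were not in the table. A match is a description of letters and says nothing about binding, and no match says only that these letters are not in the window.

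The other sorted cells give the range of each gene. Ccnd2, scarce in microglia-like cells (0.67 CPM ± 0.40, SD, n = 8 libraries), stood at 577 CPM ± 74.2 (n = 2) in lymphoid-like, 315 ± 116 (n = 2) in astroglial-like, 303 ± 49.3 (n = 6) in mural-like and 89.7 ± 21.3 (n = 8) in endothelial-like cells. Ccnd3 was highest in lymphoid-like (439 ± 47.2), neutrophil-like (261 ± 68.2, n = 7) and monocyte-like cells (255 ± 30.9, n = 7), the last 2 with overlapping ranges, and stood at 38.9 ± 14.0 in microglia-like and 36.0 ± 16.1 in border-associated macrophage-like cells. Ccnd1 had a similar level in endothelial-like (111 ± 19.7), microglia-like (102 ± 66.3) and border-associated macrophage-like cells (91.5 ± 62.0), and the last 2 did not differ beyond their spread. Cells of clusters left unnamed held the most Ccnd1 on average (207 ± 50.5, n = 8). Each such cell sum needed at least 20 cells in a library.

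The inhibitors had other orders. Cdkn1a was highest in endothelial-like (481 ± 311) and monocyte-like cells (276 ± 116) and stood at 93.7 ± 63.6 CPM over all microglia-like cells. Cdkn2d was highest in neutrophil-like cells (211 ± 42.5), followed by lymphoid-like (137 ± 42.4) and monocyte-like cells (114 ± 16.5), and stood at 24.2 ± 10.2 in microglia-like cells. Cdkn1b was above 40 CPM on average in all 9 named types, from 41.8 in ependymal-like (1 library) to 223 ± 94.8 in neutrophil-like cells. Cdkn2a was found at 11.1 ± 6.79 CPM in lymphoid-like, 7.84 ± 6.27 in microglia-like and 4.203 ± 5.58 in border-associated macrophage-like cells, and at 0.59 CPM or less on average in the other named types. The microglia-like mean joins unlike groups. It was 0.53 to 0.77 CPM in the Ctrl libraries and 8.58 to 15.3 CPM in the D0 libraries, D2-1 and D2-2, whose sums hold more dividing cells.

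The genes around these members on the same pathway gave the following counts. Of 22 tested genes of the retinoblastoma and E2F list (CDKs, pocket proteins, E2F and DP factors and their regulators), 12 were higher and 1 lower in replicating than in non-dividing cells, where 6.67% and 2.25% of all genes were. In dividing cells 12 were higher and 1 lower too, where 21.8% and 21.3% of all genes were. Among genes of at least 20 CPM in the higher class, the largest rises in replicating cells were those of E2f1 (39.4 ± 26.5 against 6.07 ± 3.39 CPM), the CDK subunit Cks1b (31.9 ± 15.6 against 7.05 ± 2.94) and the E2F partner Tfdp1 (43.7 ± 10.2 against 12.99 ± 5.35). In dividing cells they were, by the same rule, those of the repressor E2f8 (33.9 ± 19.7 CPM), of Cks1b (187 ± 44.8) and of Skp2 (23.8 ± 6.31), a ubiquitin ligase subunit that targets p27. Cdkn1c, the third CIP/KIP inhibitor, was the gene that was lower in both, at 13.03 ± 6.04 and 11.8 ± 4.82 against 27.5 ± 8.31 CPM. Dividing against replicating cells gave 4 higher and 2 lower (E2f1 and Fbxw7), where 5.82% and 2.75% of all genes were.

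In non-dividing cells 1 of the 22 was higher and 1 lower in each of D0 and D2, where 6.63% and 6.52% of all genes were higher and 2.35% and 4.21% lower, so that 1 of 22 is near the background. The higher one was E2f1 (3.23 and 2.41, adjusted p = 0.0018 and 0.013), the activating E2F that E2F factors also induce. The lower one was E2f3, at 37.7 CPM ± 2.29 in Ctrl, 19.4 ± 4.21 in D0 and 19.0 ± 4.41 in D2 (-0.73 ± 0.17 and -0.86 ± 0.20, adjusted p = 0.0318 and 0.0259). Of 11 tested p53 target genes and regulators, 2 were higher in D0 and 3 in D2, beside the same background shares, and none lower. They were Plk2 (1.81 and 1.956, adjusted p = 0.0394 and 0.0376), Bbc3, the proapoptotic PUMA, at 19.1 ± 3.29 CPM in Ctrl, 30.6 ± 7.44 in D0 and 37.7 ± 4.13 in D2 (adjusted p = 0.0367 and 0.0243), and in D2 the proapoptotic Bax (158 ± 23.8 against 121 ± 4.62, adjusted p = 0.0437). In dividing against non-dividing cells 5 of the 11 were higher, where 21.8% of all genes were (Phlda3, Ccng1, Aen, Bax and Bbc3), among them Ccng1 (38.5 ± 4.98 against 24.9 ± 4.76 CPM, 0.66 ± 0.11) and Bax (0.59 ± 0.10). None passed in replicating cells, and 3 were higher in dividing than in replicating cells.

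The genes most alike in pattern were found over 13 sums, the non-dividing cells of 8 libraries and the dividing cells of 5, as the highest Pearson r of log2(CPM + 1) among 5756 genes of at least 20 CPM on average. The 13 sums share libraries, so the values are descriptions. Cdkn2c was most like Top2a and Mki67 (both r = 0.993), which are among the genes that define the dividing class, and Cdkn2d most like Hist1h2ae and Bub1b (both 0.989). Cdkn1a was most like Snrpd2 (0.976) and H2afj (0.973), and Cdkn1b most like Parp9 (0.968) and Sugt1 (0.958). Ccnd1 was most like Nrros (0.954) and Mtap (0.944). Ccnd3 had no gene above 0.768 (Rap2b, then Gfer at 0.731). The other 4 members were below 20 CPM on average.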

How the data were processed

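Sorted CD11b+ brain cells were profiled in 9 libraries (3 Ctrl, 3 D0, 3 D2) with 36391 barcodes. The deposited files hold raw UMI counts per gene and cell, which the authors made with Cell Ranger on mm10; the file headers name versions 3.0.2 and 3.1.0. The total count per library was 20257894 to 61230741 UMIs.

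Barcodes were kept between 500 and 20000 UMIs when they held 200 genes or more and no more than 10% of mitochondrial counts. They were clustered (leidenalg 0.10.2, resolution 0.6) without the 10 genes, the 16 phase genes and mitochondrial genes, and named from fixed markers. No doublet caller was run; cells above 20000 UMIs were removed. Up to 7 barcodes were shared by any of 36 library pairs. Counts were summed per library and class and tested with edgeR 4.0.16 (quasi-likelihood, TMM, R 4.3.3), adjusted by Benjamini-Hochberg over all genes tested, threshold 0.05. Class comparisons used the library as a block. Shares were compared by exact permutation. Fitted changes are log2 fold changes with standard errors, and intervals are 95% exact Poisson intervals covering counting error only. The labels do not say more about replicates than the pools, so p-values measure the spread between libraries.

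The members and lists were chosen with earlier results of these data known. All 10 members were named, and of the other lists at most the 3 largest rises and falls among called genes of at least 20 CPM in the higher group, besides E2f1, Plk2, Phlda3 and Aen, which were named after their values were seen. Tests were tried on simulated data first. For D0 against Ctrl (12100 genes) 54.1% of genes changed by 1 on the log2 scale and 98.9% of those changed by 2 were recovered, and for dividing against non-dividing cells (11600 genes) 79.3% and 100%. Of the genes called, 5.7% and 1.63% were false. Every simulated gene had the same spread between libraries, and the scarcest genes were not changed. Recovery for uneven or scarce members, and for D2 against another group, was therefore not measured. Deviations of same-numbered libraries correlated at r = 0.412, 0.217 and 0.161 between Ctrl and D0, 0.0255 and 0.0799 between Ctrl and D2, and -0.170 and 0.252 between D0 and D2. Libraries of different numbers reached 0.266 (Ctrl-3 and D0-2) and 0.385 (D0-3 and D2-1). Alternatives covered DESeq2 1.42.0, filters, left-out libraries, thinning to 2000 UMIs, class definitions and the Cell Ranger version.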

Additional observations from a re-analysis of the deposited data

Results flagged for a closer look

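Library D2-3 entered no main comparison, and its cells were named from their nearest cells in the other libraries. In its 740 microglia-like cells 9 of the 10 genes stood above the Ctrl libraries, while Cdkn1b (17.1 CPM) stood below every other library. The share of all genes above Ctrl in this library was not counted, so 9 of 10 is not read as a result about these genes. Ccnd1 stood at 246.5 CPM, Ccnd2 at 7.52, Ccnd3 at 87.5, Ccne1 at 32.7, Ccne2 at 25.4, Cdkn1a at 162.9, Cdkn2a at 45.6, Cdkn2c at 53.2 and Cdkn2d at 56.3 CPM. Of these cells 84.9% were dividing, and their microglial markers summed to 9317 CPM, below every other library. What part these had in the levels was not tested.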

How the results depend on the processing

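DESeq2 called 24 genes and 1 member for D2 against D0 in non-dividing cells, 65 genes for the same contrast in dividing cells and 2 genes for the difference of differences, where edgeR called 0. Without a filter on low counts, 5 members were called for D0 against Ctrl and 5 for replicating cells, 22 genes and 1 member for D2 against D0, 439 genes and 4 members in dividing cells, and 33 genes and 1 member for the difference of differences. With D2-3 included, D0 against Ctrl kept 438 genes and 1 member, Ccnd1 became 0.36 (D2 against Ctrl) and 0.81 (dividing cells, D2 against D0), and the Ccnd2 share of D2 exceeded Ctrl by 0.524 percentage points. The Cell Ranger version as a covariate left 516 genes for D0, and 470 genes and 1 member for D2. No library block left 3030, 504 and 596 genes for dividing against non-dividing, replicating against non-dividing and dividing against replicating cells. Thinning left 2908, 604 and 312 genes in those comparisons, 3 members in the last, a Ccne1 change of -0.45 there, and 33 genes for D2 against D0 in dividing cells. Replicating cells gave 1729 genes with no upper UMI limit, 1432 when 3 genes defined a class (Ccne1 then -0.0706 between dividing and replicating cells), and 4 members against cells with none of the 16 phase genes. The counts of 5, 5 and 4 members stand here without the number of all genes called in those settings. They are therefore not read against a background. Removing the 4% of cells with most UMIs gave 2 genes for the difference of differences. All microglia-like cells together, with dividing and replicating cells in the sums, gave 2544 genes and 6 members for D0 and 2301 genes and 8 members for D2. The causes of these differences between settings were not tested.

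Leaving out 1 library at a time gave 422 to 1160 genes and 2 to 4 members for D0 against Ctrl, 585 to 2063 genes and 3 to 4 members for D2 against Ctrl, 0 to 0 genes for D2 against D0, 3273 to 5822 genes and 6 to 6 members for dividing, 396 to 1069 genes and 2 to 4 members for replicating against non-dividing, 606 to 1285 genes and 5 to 8 members for dividing against replicating, 0 to 480 genes and 0 to 2 members for D2 against D0 in dividing cells, and 0 to 627 genes and 0 to 2 members for the difference of differences. Ccnd1 ranged from -2.35 to 1.76 (D2 against D0), -3.62 to 0.50 (D2 against Ctrl), -0.42 to 0.24 (dividing) and -2.77 to 0.0271 (difference of differences), Ccnd3 from -0.32 to 0.14 (dividing), and the replicating share of D2 against Ctrl from -0.0384 to 1.10 percentage points. With the replicate block, D0 against Ctrl gave 1238 genes and 3 members and D2 against Ctrl 1196 genes and 3 members, where Cdkn2c was lost, and D2 against D0 gave 0 in both classes.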
